A study of Rattus norvegicus with 12 samples.

Results

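The genes described here are those of the cytosolic ribosomal proteins, measured by RNA sequencing of rat cardiac muscle. They were taken by name: every row of the expression table whose symbol began with Rpl or Rps and a digit, or with Rplp0 to Rplp2 or Rpsa, without S6 kinases, pseudogene or "-like" names, and averaging 1 TPM or more over the 12 samples. TPM expresses a gene's length-corrected transcripts as a share of the sample's total, so that each sample has the same sum. The rule gave 82 of the 17602 rows, out of 87 that matched by name. These rows carried 77 symbols, because Rpl21, Rpl32, Rps10, Rps27a and Rps19l2 each stood on 2 rows, called copy 1 and copy 2 here in order of their mean. The labels do not say how reads were divided between such near-identical rows, so their single values are uncertain. By name, 41 rows belonged to the large subunit, 29 to the small subunit, 2 to the stalk (Rplp0 and Rplp1) and 9 to paralogs or copies. Rps19bp1 met the rule although it encodes a binding protein of RPS19 and no ribosomal protein. All 82 rows passed the filter on low values. Just inside the limit lay Rpl10l with a mean of 1.70 TPM, Rps2 with 6.91 and Rps19bp1 with 10.4. Just outside lay Rps29 with 0.908 TPM and Rps4y2 with 0.705, both left out with 3 rows of lower level. No matched row carried the symbol Rplp2, Rps14, Rps19, Rps26, Rpl8, Rpl22, Rpl35a or Rpl38. The members and their sums therefore do not cover every cytosolic ribosomal protein.

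The study asked what nicotinamide (NAM), one of the vitamin B3 compounds and a precursor of NAD+, does in a rat model of heart failure with preserved ejection fraction. The 12 samples were 4 of lean ZSF1 rats, the controls, 4 of obese ZSF1 rats, and 4 of obese ZSF1 rats that had 24 mM NAM in their drinking water between weeks 8 and 20 of age. All groups shared the strain and conventional housing with free food and water. The labels call the obesity diet-induced, whereas obese ZSF1 rats are known to carry defective leptin receptor alleles, and the age of the untreated rats is not given in the labels. Nothing in the labels ties the samples to separate animals or names a batch, so the p-values cover no more than the spread among these samples, and batch and group cannot be told apart. Read depth cannot be recovered from TPM and is unknown here.

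Cytosolic ribosomes are built from ribosomal RNA and one copy each of a large set of proteins, most of which are made in equal numbers. Their mRNAs belong to the most abundant in any tissue and typically begin with a C followed by a run of pyrimidines, the 5′ terminal oligopyrimidine (5′ TOP) tract. When mTORC1 signalling is low, the protein LARP1 holds such mRNAs out of translation, so that control acts largely on translation, which RNA levels do not show. Heart and skeletal muscle also make RPL3L, a paralog that takes the place of RPL3 near the catalytic centre of the large subunit.

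The start-site sequences are shown first, since the tract lies there. Promoter sequences were taken from the RefSeq table of the GRCr8 assembly, which is not the Rnor_6.0 build of the expression values, and 62 of the 76 ribosomal protein symbols had an entry (81.6%). The 30 bases below run from 15 before to 15 from the annotated start onwards, 5′ to 3′ on the gene's strand. Capitals mark a run of C and T that starts with C, is at least 6 bases long and is the longest in the window. The first 7 genes are the 2 stalk genes among the members, genes that passed a test below and the most abundant member.
Rplp0, chr12:46718376-46718405, minus strand: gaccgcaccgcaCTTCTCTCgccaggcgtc
Rplp1, chr8:71290858-71290887, minus strand: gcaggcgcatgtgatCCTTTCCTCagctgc
Rpl13a, chr1:104748899-104748928, minus strand: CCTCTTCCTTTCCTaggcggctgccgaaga
Rpl35, chr3:43165907-43165936, minus strand: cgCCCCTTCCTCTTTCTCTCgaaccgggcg
Rps21, chr3:187724023-187724052, plus strand: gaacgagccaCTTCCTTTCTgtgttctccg
Rpl31, chr9:49143096-49143125, plus strand: ccacaatccctcgcgCCTTTCCTTTCCaac
Rps27, chr2:177964592-177964621, minus strand: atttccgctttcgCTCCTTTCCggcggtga
The next 3 are the muscle paralog Rpl3l, its partner Rpl3 and the copy Rps15al4, and none of them holds such a run in the window.
Rpl3l, chr10:14258431-14258460, plus strand: gacctctggtgcctggtggggaggtccctt
Rpl3, chr7:113507976-113508005, minus strand: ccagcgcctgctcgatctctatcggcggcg
Rps15al4, chr2:56165486-56165515, minus strand: gctgacgttaagattccgttctgtggctct
A run of this kind stood in the window of 42 of the 62 ribosomal protein promoters (67.7%) and of 21.1% of all 19005 protein-coding promoters. A C at the annotated first base followed directly by 4 pyrimidines was found in 20 of 62 (32.3%), against 2.44% of all. The letters CTTTCC occurred on the gene's strand within the window in 14 of 62 (22.6%), against 1.44% of all. These are matches of letters around annotated starts, which can lie some bases from the start used in the heart.

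**Figure D1:**
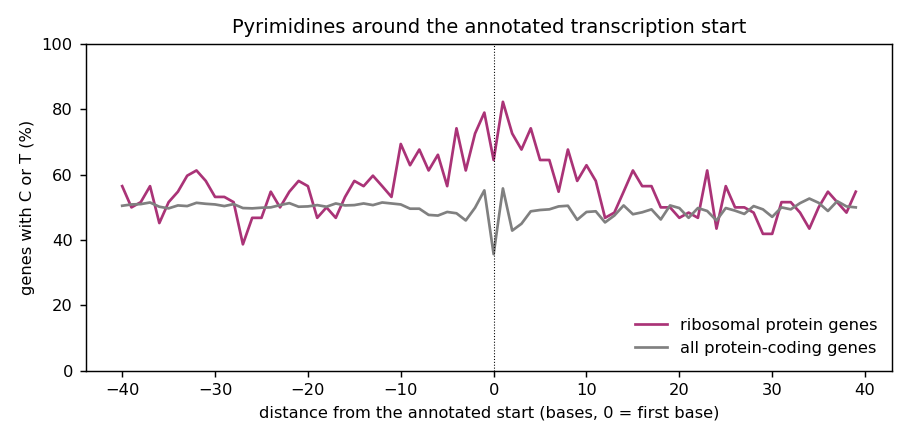
Percentage of genes with C or T (y axis) at each base from 40 before to 39 after the annotated start (x axis, 0 is the first base), for the 62 ribosomal protein genes with a promoter entry and for all 19005 protein-coding genes. The ribosomal protein line rises to 82.3% at the base after the start, where 55.8% of all genes have a pyrimidine, and the lines meet farther away.

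Other promoter letters were searched too. The E-box letters CAGCTG, which read the same on both strands, stood in the 250 bases before the start in 3.23% of ribosomal protein promoters and 11.9% of all. The core CCGGAAG, which ETS-family factors are known to bind, occurred on either strand in the 300 bases around the start in 29.0% of ribosomal protein promoters and 11.2% of all. The YY1-type letters AAGATGGC occurred in 6.45% and 3.92%, and TATAAA in the 50 bases before the start in 6.45% and 2.82%. The 250 bases before the start of Rpl3l are shown because it is the only member whose change between obese and lean held in every left-out fit on the deposited scale. In it, capitals mark CATTCC, known as the core of the TEAD factors' site, and CACCTG, an E-box. Each was found here on the reverse strand and is therefore printed as its reverse complement.
Rpl3l, chr10:14258196-14258445, plus strand: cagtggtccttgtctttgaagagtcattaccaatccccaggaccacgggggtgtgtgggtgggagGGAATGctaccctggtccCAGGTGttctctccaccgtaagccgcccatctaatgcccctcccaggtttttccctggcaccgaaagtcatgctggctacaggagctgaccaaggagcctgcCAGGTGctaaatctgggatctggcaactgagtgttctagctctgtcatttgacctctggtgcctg
Read on both strands, CATTCC stood in the same stretch of 10.8% of all promoters and CACCTG in 15.7%, so neither is rare, and no binding was measured.

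The members were abundant and unequal. The mean over the 12 samples was highest for Rps27, a zinc-finger protein of the small subunit, at 898 TPM. It was followed by Rpl41, a very short protein, at 681 TPM, Rpl21 copy 1 at 540, Rpl37 at 523 and Rpl30 at 516. The median member had 155 TPM. The 5 highest rows held 18.6% of the members' summed TPM and the 10 highest 32.7%. At the other end, 7 rows lay under 20 TPM, among them Rpl31, Rps2 and Rpl10l, and the highest level was 529 times the lowest. Since complete ribosomes hold 1 copy of nearly every protein, this spread is one of transcripts as counted, and the split of reads between genes and their many processed copies was not tested.

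By the median of the 3 groups, replicates agreed closely for most members. The coefficient of variation among 4 replicates, taken as the median of the 3 groups, had a median of 10.7% over the members, and 64 of 82 lay under 15%. Only 5 lay over 30%: Rps6 at 109%, Rpl9 at 70.9%, Rpl13 at 61.2%, Rpl10l at 48.3% and Rps2 at 33.9%. This median can hide a wide group. Rpl3 (34.4%) and Rps27l (37.2%) passed 30% in obese samples only, Rps10 copy 2 (34.5%) in lean only and Rpl32 copy 2 (33.4%) with NAM only. The members' summed deposited TPM had an SD of 684 in lean, 1852 in obese and 1580 in NAM samples. The largest spread was that of Rps6, the small-subunit protein that S6 kinase phosphorylates. It had 65.3, 76.2, 39.6 and 49.0 TPM in the lean samples, 4.65, 0.925, 18.0 and 0.494 in the obese samples, and 75.3, 0.0105, 11 and 35.7 with NAM. Every obese sample lay below every lean sample, while the NAM samples ran from the lowest to nearly the highest value of the series. The log2 change on the scale of log2(TPM + 1) was -3.76 (SE 1.30) between obese and lean, with limma's adjusted p = 0.0750, and did not pass. Rpl9, a large-subunit protein, ran from 19.7 to 288 TPM within the lean group alone. Other core proteins of both subunits did not follow these swings. Rps3, at the channel where mRNA enters, had 197, 190, 188 and 194 TPM in lean samples, 160, 168, 203 and 209 in obese samples and 219, 178, 199 and 210 with NAM.

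Together the members took 1.84, 1.71, 1.68 and 1.74% of TPM in the lean samples, 1.52, 1.44, 1.85 and 1.70% in the obese samples and 1.75, 1.49, 1.79 and 1.85% in the NAM samples. The groups overlapped throughout. Mitochondrially encoded transcripts, which share the same total, took 66.2 to 70.4% in lean, 74.6 to 75.5% in obese and 69.9 to 73.8% in NAM samples. Of the TPM outside those transcripts, the members took 5.44, 5.72, 5.68 and 5.75% in lean, 6.21, 5.76, 7.31 and 6.85% in obese and 5.82, 5.69, 6.15 and 6.32% in NAM samples. On this count every obese sample lay above every lean sample, though obese replicate 2 did so by less than the spread of the lean samples. The choice of total therefore sets the direction. Each result below is given on the deposited scale and on a second one ("rescaled"), for which a sample's values were divided by a single factor, its median ratio to the mean sample. The rescaling moved the median of all 10526 tested genes from a log2 change of -0.20 to 0.00 between obese and lean, from 0.25 to -0.01 between NAM and obese, and from 0.05 to 0.00 between NAM and lean. In this bulk tissue, fewer cells of a type and less RNA per cell cannot be told apart.

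**Figure D2:**
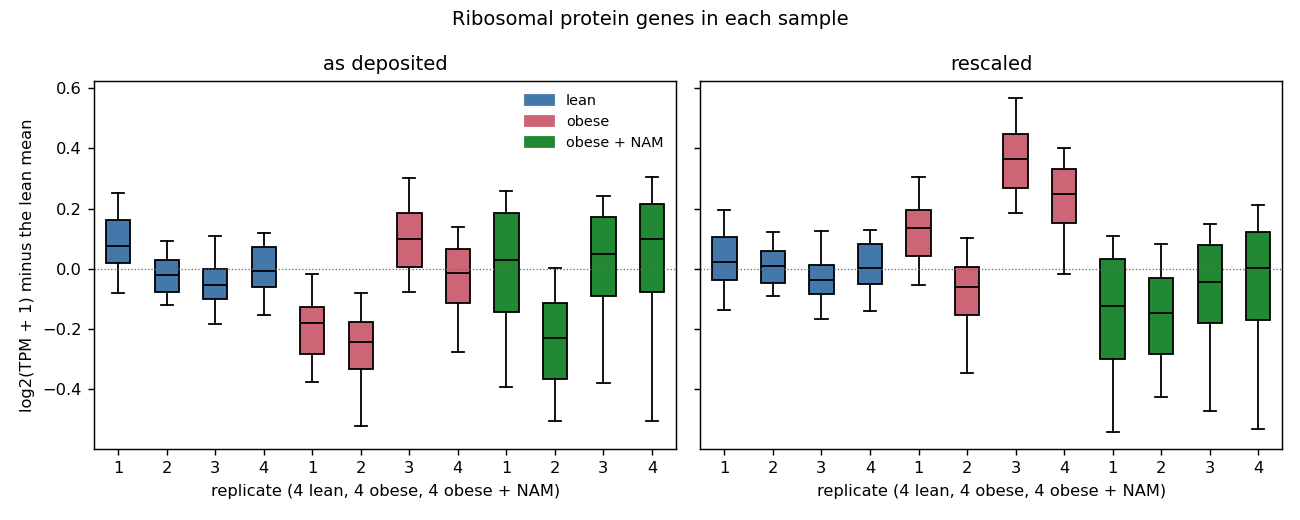
Log2(TPM + 1) of the ribosomal protein genes minus each gene's lean mean (y axis) in the 12 samples (x axis), as deposited and rescaled, with boxes for the quartiles, a line for the median and whiskers from the 10th to the 90th percentile over genes (Rps19bp1 left out). Obese replicates 3 and 4 stand highest after rescaling, with medians of 0.36 and 0.25, whereas as deposited obese replicates 1 and 2 and NAM replicate 2 stand lowest, with medians of -0.18, -0.24 and -0.23. These medians are over all members, Rps19bp1 included.

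Between obese and lean hearts, most ribosomal protein genes lay above the median gene, while few passed the test. As deposited, the median member changed by -0.09 on the log2 scale against -0.20 for all tested genes, 68 of 82 members had a negative change (82.4% of all genes did), and 71 lay above the median gene. After rescaling the median member changed by 0.17 against 0.00, with 74 of 82 positive (50.7% of all genes), so the sign depends on the scale. As deposited, limma called 0 members higher and 2 lower (Rpl3l and Rps21) at an adjusted p under 0.05, beside 0.352% and 16.5% of all tested genes. Rescaled, it called 1 member higher, Rpl31, and 0 lower, beside 0.589% and 0.751% of all genes. At an unadjusted p under 0.05, 25 members were higher and 2 lower after rescaling, beside 8.14% and 8.54% of all genes. Groups did not overlap for 6 members on the higher side and 2 on the lower side, against 4.25% and 5.32% of all genes.

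The shift was uneven among the obese samples. After rescaling, 71 of 82 members in obese replicate 3 and 59 in obese replicate 4 lay above every lean sample. The count was 47 in obese replicate 1 and 10 in obese replicate 2, where 31 members lay below every lean sample. These positions were not counted over all tested genes, so the counts compare the samples with one another only. Without obese replicate 3 the rescaled median change of the members was 0.11 and limma called 0 members, beside 0.642% of all genes. Without obese replicate 2 it was 0.25 with 4 called higher, beside 0.823% of all genes called in either direction. Fibroblast and macrophage markers were highest in the same 2 obese samples. The 5 fibroblast markers summed to 403 to 448 rescaled TPM in lean samples, to 432, 521, 781 and 697 in obese replicates 1 to 4 and to 371 to 429 with NAM. The 6 macrophage markers summed to 24.9 to 35.2 in lean samples, to 19.2, 38.6, 74.6 and 56.1 in obese samples and to 28.1 to 33.4 with NAM. Among erythroid genes, 4 summed to 1399, 1219, 3264 and 2550 in the obese samples, against 492 to 1003 in lean and 312 to 1459 in NAM samples. No marker of these lists was at 0 in every sample. The 6 cardiomyocyte markers were present throughout, at 12040 to 13690 in lean, 9788 to 10980 in obese and 10400 to 11430 in NAM samples. The sums of endothelial and of smooth muscle markers were lowest of the obese group in replicates 3 and 4. Endothelial sums were 75.2, 67.5, 59.0 and 57.9 in obese and 61.0 to 70.3 in lean samples. Smooth muscle sums were 259, 228, 209 and 218 in obese and 244 to 282 in lean samples. Des made up most of them, with a mean of 253 of 275 deposited TPM in lean and 181 of 201 in obese samples. Of the 4 smooth muscle markers tested, 3 had a positive rescaled change between obese and lean (median 0.04), so the sum does not describe the list. The part of other cells' RNA in the members' levels was not tested.

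**Figure D3:**
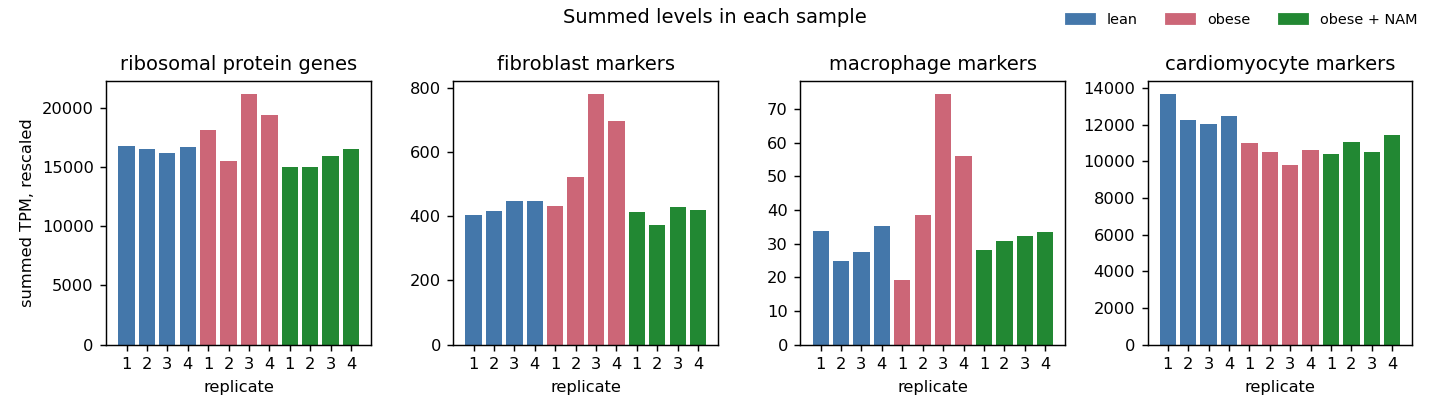
Summed rescaled TPM (y axis, from 0) of the ribosomal protein genes and of fibroblast, macrophage and cardiomyocyte markers in each sample (x axis, replicates 1 to 4 of lean, obese and obese + NAM). The members' sum is highest in obese replicates 3 and 4 (21180 and 19410, against 16140 to 16780 in lean), which also have the highest fibroblast and macrophage sums.

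Rpl3l, the muscle paralog, gave the firmest change of a single member. It had 85.5, 67.6, 66.0 and 59.5 TPM in lean samples, 47.7, 39.8, 40.8 and 41.5 in obese samples and 52.8, 49.0, 52.9 and 55.1 with NAM. The groups followed one another without overlap, lean highest and obese lowest. Rpl3l fell between lean and obese from 69.7 ± 11.1 to 42.5 ± 3.57 TPM (SD, n = 4; log2 change -0.69, SE 0.10, limma adjusted p = 0.00241). This call held in all 12 fits that left out 1 sample. Rescaled, the log2 change was -0.44 (adjusted p = 0.0580) and did not pass, with the groups still apart. With NAM it rose above the obese level as deposited (log2 change 0.30, adjusted p = 0.0462), a call that ended in 8 of the 12 left-out fits, while the rescaled change of -0.02 did not pass (adjusted p = 0.955). Against lean, the NAM samples were lower after rescaling (log2 change -0.45, adjusted p = 0.0374) and not called as deposited (-0.39, adjusted p = 0.0869). As deposited, all 6 cardiomyocyte markers were also called lower between obese and lean (median -0.52), beside 16.5% of all genes. All 6 were called higher with NAM against obese (median 0.46), beside 28.8%. The part of cardiomyocyte content in the Rpl3l level was not tested.

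A ratio of paralogs within a sample needs no common scale. Rpl3l to Rpl3 stood at 1.17, 0.988, 1.06 and 1.05 in the lean samples, so the muscle paralog and the general protein had about equal TPM. In obese samples the ratio was 0.958, 0.727, 0.40 and 0.474, and with NAM 0.763, 0.797, 0.790 and 0.808. Every obese and every NAM sample lay below every lean sample, and the NAM values fell within the range of the obese ones. The mean log2 ratio differed by -0.82 between obese and lean (exact 2-sided permutation p = 0.0286), by 0.39 between NAM and obese (exact p = 0.314) and by -0.43 between NAM and lean (exact p = 0.0286). Adjusted over the 15 exact tests of 5 pairs, 0.0286, the smallest p that 4 against 4 samples allow, became 0.143, and no ratio passed. The 2 lowest ratios came with a high Rpl3 as well as a low Rpl3l: in obese replicates 3 and 4 Rpl3 had 102 and 87.7 TPM, against 49.9 and 54.8 in obese replicates 1 and 2 and 56.4 to 73.2 in lean samples. Those 2 samples also had the highest fibroblast and macrophage sums, and the part of the cell mix in the ratio was not tested.

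Other paralog pairs had their own balance. Rpl36al had 21.8 to 43.3 times the TPM of Rpl36a. Rps27l, a p53-responsive paralog, had 0.148 to 0.282 of the TPM of Rps27. Rpl7l1, a relative of Rpl7 that takes part in ribosome assembly, had 0.286 to 0.518 of the TPM of Rpl7. None of these 3 ratios differed between groups at an unadjusted exact p under 0.05. Rpl10l, known from the testis, had 0.00152 to 0.00976 of the TPM of Rpl10. Its ratio was lower with NAM than in obese samples by 1.44 on the log2 scale (exact p = 0.0286, adjusted 0.143), at levels of 0.472 to 2.97 TPM.

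Rps21, a small-subunit protein, was the other member called between obese and lean. It had 546, 586, 510 and 465 TPM in lean samples, 436, 244, 392 and 318 in obese samples and 216, 292, 372 and 316 with NAM. Every lean sample lay above every other sample. Rps21 fell in obese hearts (log2 change -0.63, SE 0.19, limma adjusted p = 0.0398) and was lower with NAM than in lean hearts (-0.84, adjusted p = 0.0458). Both calls were as deposited and ended in 9 and 10 of the 12 left-out fits. Rescaled, the changes were -0.37 (adjusted p = 0.436) and -0.90 (adjusted p = 0.0578). Rpl31, which sits by the exit of the peptide tunnel, was the 1 member that rose after rescaling. Its rescaled TPM were 11.2, 10.03, 9.70 and 10.2 in lean, 14.99, 14.2, 14.0 and 14.5 in obese and 12.4, 9.77, 12.4 and 12.5 in NAM samples. Obese samples lay above all others (log2 change 0.45 against lean, SE 0.08, limma adjusted p = 0.0265), and the call ended in 6 of 12 left-out fits. As deposited its change was 0.21 (adjusted p = 0.217).

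**Figure D4:**
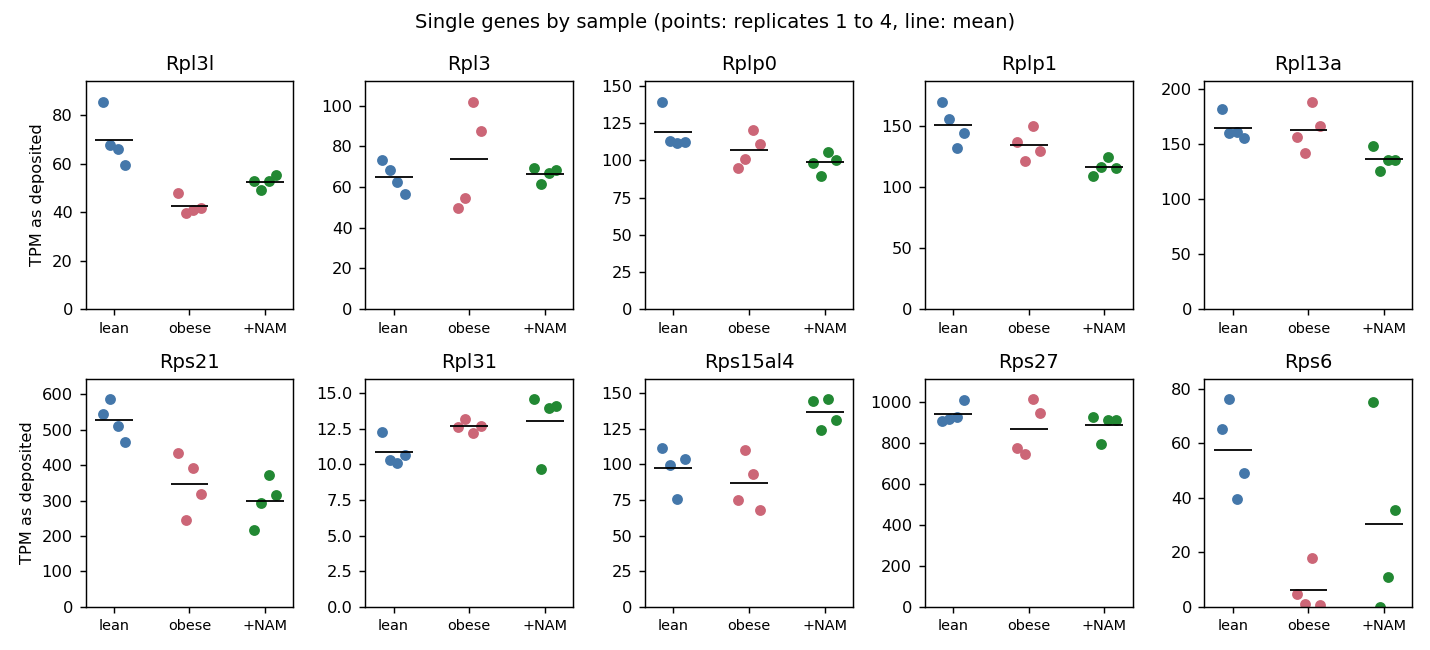
Deposited TPM (y axis, from 0) of 10 ribosomal protein genes in each sample, with points for replicates 1 to 4 of lean, obese and obese + NAM rats and a line for the mean. Rpl3l shows 3 groups apart (means 69.7, 42.5 and 52.5 TPM), Rps21 is highest in lean samples, and Rps6 ranges from 0.0105 to 76.2 TPM.

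Between NAM-treated and untreated obese hearts, most members lay below the median gene on both scales, and few passed the test. As deposited, the median member changed by 0.09 on the log2 scale against 0.25 for all tested genes, and 71 of 82 lay below the median gene. Rescaled, the median was -0.24 against -0.01, with 78 of 82 negative (51.5% of all genes). As deposited, limma called 5 members higher and 2 lower, beside 28.8% and 0.466% of all tested genes. Rescaled, it called 0 higher and 4 lower, beside 0.200% and 0.513% of all genes. At an unadjusted p under 0.05, 45 members were lower after rescaling, beside 8.42% of all genes on that side. The groups did not overlap for 20 members lower and 0 higher with NAM, beside 4.30% and 4.86% of all genes. These rescaled counts leaned on single samples of both groups. Without obese replicate 2 limma called 20 members lower (median -0.30), beside 1.49% of all genes called in either direction. Without obese replicate 3 it called 1 (median -0.18), beside 0.163%. Without obese replicate 4, NAM replicate 1 or NAM replicate 4 it called 0, beside 0.124%, 0.096% and 0.182%. As deposited, 18 of 82 members were called without NAM replicate 2, beside 34.9% of all genes. That sample was the lowest of its group for 68 of 82 members, a position not counted over all genes. Both comparisons use the same 4 obese samples, so a member high in them tends to differ in opposite directions, and the 2 results are not independent.

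The 2 stalk genes among the members, Rplp0 and Rplp1, were both called lower with NAM after rescaling. No row carried the symbol Rplp2, which the rule also covered. The stalk of the large subunit is where the elongation factors dock, with Rplp0 at its base. Rplp0 had 112, 109, 138 and 127 rescaled TPM in obese samples, 84.0, 90, 94.3 and 89.5 with NAM and 127, 110, 107 and 108 in lean samples. Rplp1 had 162, 130, 172 and 148 in obese samples, 92.8, 117, 111 and 103 with NAM and 155, 151, 127 and 138 in lean samples. For both genes all NAM samples lay below all samples of the other groups. The rescaled log2 change against obese was -0.43 for Rplp0 (SE 0.08, limma adjusted p = 0.0411) and -0.53 for Rplp1 (SE 0.10, limma adjusted p = 0.0394). These calls ended in 9 and 8 of 12 left-out fits. As deposited the changes were -0.11 (adjusted p = 0.409) and -0.20 (adjusted p = 0.111), while most other genes were higher.

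The other 2 members called after rescaling belong to the large subunit. In the sequences printed above, the pyrimidine run of Rpl35 spans the annotated start and that of Rpl13a ends just before it. Rpl13a had 185, 152, 215 and 190 rescaled TPM in obese samples and 127, 126, 120 and 121 with NAM, against 149 to 166 in lean samples. NAM samples lay below both other groups, and the log2 change against obese was -0.58 (SE 0.09, limma adjusted p = 0.0200), with 3 of 12 left-out fits ending the call. Rpl35, beside the peptide exit tunnel, had 306, 250, 315 and 297 rescaled TPM in obese samples and 217, 206, 215 and 212 with NAM, against 241 to 296 in lean samples. Its log2 change was -0.45 (adjusted p = 0.0345), and 8 left-out fits ended the call.

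On the deposited scale, where the median gene was higher with NAM by 0.25, the called members were mostly paralogs. Rps15al4, a copy of the small-subunit gene Rps15a by name, had 75.2, 110, 93.1 and 67.6 TPM in obese samples and 144, 124, 145 and 131 with NAM, against 75.5 to 111 in lean samples. All NAM samples lay above all others, and it rose by 0.67 on the log2 scale against obese (SE 0.15, limma adjusted p = 0.00773), a call that held in all 12 left-out fits. Rescaled, the change was 0.35 (adjusted p = 0.225). Reads of Rps15al4 may be shared with other near-identical copies, so its level is uncertain. Rpl7l1 had 14.1 ± 3.13 TPM in obese and 20.9 ± 1.99 TPM in NAM samples, a rise of 0.56 on the log2 scale (SD, n = 4; limma adjusted p = 0.0220). Rpl10, which joins the large subunit last in assembly, rose by 0.28 (adjusted p = 0.0418), near the shift of the median gene. Rpl10l fell by 0.69 (adjusted p = 0.0410) at a level near 1 TPM. The call ended in 3 of the 12 left-out fits for Rpl7l1, in 8 for Rpl10 and in 7 for Rpl10l. Rpl27 (0.27, adjusted p = 0.0465) and Rps15 (-0.42, adjusted p = 0.0435) were named after their values were seen, to complete the count. Rps15, near the decoding site, had 67.0, 54.5, 93.1 and 71.6 TPM in obese samples and 54.2, 56.4, 50.3 and 48.8 with NAM.

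**Figure D5:**
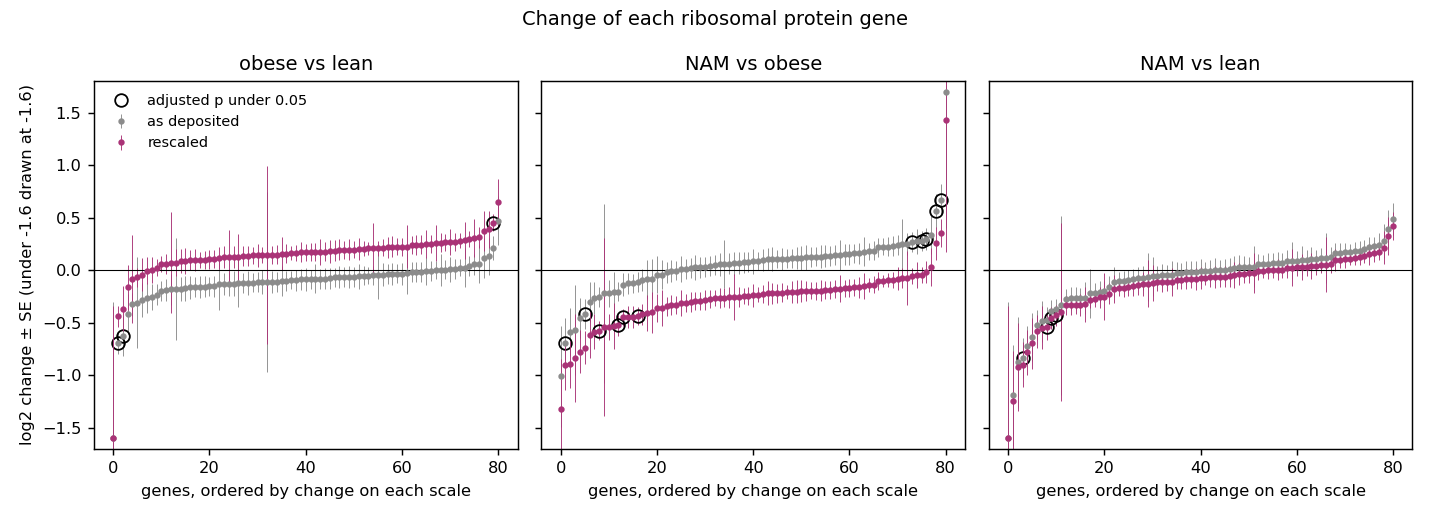
Log2 change with its standard error (y axis) of each ribosomal protein gene in the 3 comparisons, ordered by size on each scale (x axis), as deposited in grey and rescaled in purple, with circles around adjusted p under 0.05. The rescaled points lie mostly above 0 between obese and lean (74 of 82 members) and mostly below 0 between NAM and obese (78 of 82), while as deposited the signs were mostly the opposite. Rps19bp1 is counted in these numbers but not drawn, and values under -1.6 (Rps6) are drawn at that value.

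Against lean hearts, the members' median change with NAM was small on both scales. The median member changed by -0.01 as deposited and by -0.07 after rescaling, against 0.05 and 0.00 for all genes. As deposited limma called 0 members higher and 1 lower (Rps21), beside 0.865% and 0.969% of all genes. Rescaled, it called 0 higher and 3 lower, among them Rpl3l and Rplp1, beside 0.770% and 1.59% of all genes. The groups did not overlap after rescaling for 18 members on the lower side and 4 on the higher side, beside 6.39% and 5.83% of all genes. Rplp1 was lower than in lean samples by 0.43 on the log2 scale (rescaled log2 change -0.43, adjusted p = 0.0480). The calls of Rpl3l and Rplp1 ended in 8 and 9 of 12 left-out fits.

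Several members with known roles outside the ribosome passed in no comparison on either scale. Rpl5 and Rpl11, which with 5S RNA bind MDM2 when assembly fails, changed after rescaling by 0.14 and 0.16 between obese and lean (adjusted p = 0.427 and 0.334) and by -0.14 and -0.17 between NAM and obese (adjusted p = 0.448 and 0.319). Rps27a copy 1, which encodes ubiquitin fused to a small-subunit protein, had 286 to 299 rescaled TPM in lean samples and 312 to 386 in obese samples. The groups lay apart, but the change of 0.28 did not pass (adjusted p = 0.0688). Rpsa, the small-subunit protein also known as a laminin receptor, changed by 0.18 between obese and lean and by -0.29 between NAM and obese after rescaling (adjusted p = 0.333 and 0.132). The abundant Rps27 changed by 0.14 and -0.29 (adjusted p = 0.534 and 0.181).

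A list of 18 measured genes with a known 5′ TOP tract outside the name rule holds mostly translation factors. As deposited, 0 of 18 were called higher and 3 lower between obese and lean, and 3 higher and 1 lower with NAM against obese. Over all tested genes 16.5% were called lower in the first comparison and 28.8% higher in the second. Eif4b, an initiation factor that helps unwind mRNA, changed by -0.29 and 0.41 (limma adjusted p = 0.0189 and 0.00404). Eef2, the translocation factor of elongation, was lower in obese hearts by 0.30 on the log2 scale (log2 change -0.30, adjusted p = 0.0348). Rescaled, 0 were called between obese and lean and 1 lower with NAM. The list's rescaled medians were 0.12 and -0.12, on the same side of 0 as those of the ribosomal protein genes (0.17 and -0.24).

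After rescaling, few genes of the machinery around the ribosome were called, as was the case for all tested genes (0.589% higher and 0.751% lower between obese and lean, 0.200% and 0.513% with NAM). The deposited counts below stand beside 16.5% of all genes called lower between obese and lean and 28.8% called higher with NAM. Of 28 initiation factors, 12 were called lower between obese and lean as deposited and 17 higher with NAM against obese, and 0 in either comparison after rescaling (median changes of -0.05 and 0.05). Eif3a, the scaffold of the eIF3 complex, changed as deposited by -0.41 and 0.47 (adjusted p = 0.00443 and 0.00305). Of 37 genes for ribosome assembly and rRNA processing, 2 were lower and 8 higher as deposited, and after rescaling 0 and 1. The 1 was Gnl3l, a nucleolar GTPase, higher with NAM by 0.33 (limma adjusted p = 0.0350). Of 15 genes of RNA polymerase I transcription, 2 were lower and 4 higher as deposited and 0 after rescaling. Of 22 genes of mTORC1 and S6 kinase signalling, 8 were lower and 11 higher as deposited, and 1 was called after rescaling between obese and lean. That gene was Larp1, the repressor of 5′ TOP mRNAs, which fell from 7.56 ± 0.692 to 4.66 ± 0.417 TPM in obese hearts (log2 change -0.60, adjusted p = 0.00416, and rescaled -0.38, adjusted p = 0.0400). Mitochondrial ribosomal proteins, whose 73 measured genes serve a separate ribosome, had 28 lower between obese and lean and 30 higher with NAM as deposited. Their rescaled medians were -0.07 and -0.04, beside 0.17 and -0.24 for the cytosolic ones.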

How the data were processed

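RNA of 12 cardiac muscle samples, 4 per group, was sequenced after TRIzol and RNeasy isolation with a strand-specific kit, per the labels' protocols. The deposited table gives TPM per gene against Rnor_6.0, per the submitters' processing notes, which also name limma. The aligner and quantifier were not given in the sources used here. Columns summed to between 999794 and 999999. In the NAM columns 498 rows held the text mark #N/A in place of a number and were left out, none of them a member. These columns, recorded as another unit for that mark, are TPM as deposited by the authors.

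A gene was kept where 4 or more samples reached 1 TPM (10526 genes). Values of log2(TPM + 1) went into limma 3.58.1 under R 4.3.3 (3 group means over 12 samples, eBayes with trend and robust, statmod 1.5.0). Each comparison was 2-sided, with Benjamini-Hochberg adjustment over all kept genes and a threshold of 0.05. Where no exact test is named, adjusted p-values are limma's. A pseudocount of 1 understates changes of low genes. For rescaled values a sample was divided by its median-of-ratios factor, with each kept gene's geometric mean over samples as the reference. Paralog ratios were compared with exact permutation tests. The code was tested on simulated data.

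Named genes are 30 members: fixed names (stalk, paralogs and members with known extra roles), the largest called changes per comparison and the 5 highest levels; of each other list up to 4 called genes. The members and lists were chosen with earlier results of these data known. Same-numbered samples correlated with r from -0.05 to 0.0745 after removing group means, so the numbers pair nothing. Alternatives were pseudocounts of 0.1 and 5, other filters, scalings and moderation, fits to 8 samples, a replicate block and each sample left out. Protein sequences and promoters of the other members were not used here. Single results of some genes are not reported here.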

Additional observations from a re-analysis of the deposited data

Results flagged for a closer look

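Among the 90 groups of 4 samples tested (30 named members in 3 groups, log2 of deposited TPM + 1), 8 held a sample whose gap to the nearest other sample, as a part of the group's range, exceeded Dixon's 95% critical value. Chance gives about 1 in 20 groups. Lean replicate 1 was high for Rplp0 (139 TPM against 111 to 113, gap 0.936), Rpl41 (824 against 642 to 659, gap 0.893) and Rpl30 (574 against 532 to 535, gap 0.923). Lean replicate 4 was high for Rpl5 (216 against 206 to 207, gap 0.875). NAM replicate 2 was low for Rpsa (105 against 122 to 124, gap 0.870), Rps27a copy 1 (306 against 365 to 378, gap 0.842), Rps27 (795 against 910 to 928, gap 0.879) and Rpl31 (9.71 against 14.0 to 14.6, gap 0.899). NAM replicate 2 also had the largest mitochondrially encoded share of its group, 73.8% of TPM, and the part of that share in its low values was not tested.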

How the results depend on the processing

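No call of a named member held under every alternative. The sign of the members' median turned between the deposited and the rescaled scale in both comparisons with untreated obese hearts. For NAM against lean the median was slightly negative on both scales (-0.0075 and -0.0721), but not under every alternative. It was 0.0979 without mitochondrially encoded genes (0.151 for all genes) and 0.0197 with quantile normalization (0.0267 for all genes). Without NAM replicate 2 it was 0.072 as deposited. As deposited, limma called 2, 7 and 1 members in obese against lean, NAM against obese and NAM against lean, and rescaled 1, 4 and 3. Of all genes it called 16.8, 29.2 and 1.83% as deposited and 1.34, 0.713 and 2.36% rescaled. Percentages in brackets below are likewise shares of all genes called in either direction. Without a filter these counts were 1, 2 and 0 as deposited and 0, 1 and 0 rescaled. With a mean of at least 5 TPM, NAM against lean gave 2 of 81 members as deposited (3.64%), and the rescaled counts were 5, 7 and 5 (4.18, 2.34 and 6.2%). With TPM recomputed without mitochondrially encoded genes the member counts were 1 higher (0.469%), 4 lower (1.57%) and 6 higher (4.3%). With plain eBayes moderation, NAM against obese gave 3 (29.8%) and NAM against lean 0 (1.23%) as deposited, and 1 (0.152%) and 0 (1.72%) rescaled. With quantile normalization the rescaled NAM comparisons gave 2 (0.627%) and 1 (2.12%), the latter higher. Fits to the 8 samples compared gave 2 (1.28%) for NAM against lean as deposited, and 0 (0.0665%) and 7 (2.45%) for the rescaled NAM comparisons. A replicate block was also fitted, although its numbers did not pair the samples (4 of 12 correlated best with their own number). With it, NAM against lean gave 0 on both scales (1.25% as deposited, 1.76% rescaled) and rescaled NAM against obese 1 (0.276%). Leaving out each sample gave 1 to 3, 1 to 18 and 0 to 1 members as deposited, and 0 to 4, 0 to 20 and 0 to 6 rescaled. The fits with 18, 4 and 20 members stood beside 34.9, 0.823 and 1.49% of all genes, and those with 6 beside 2.34 and 2.35%. Without mitochondrially encoded genes Rpl3l between obese and lean had adjusted p = 0.0690 and Rps15al4 with NAM 0.0888. The cause of these differences was not tested. TPM give no depth, so no limit for low rows such as Rpl10l can be given. A planned list of genes for short proteins was not run.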
